A study of Mus musculus with 12 samples.

Results

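The phagocyte NADPH oxidase was followed through 5 of its genes, Cybb, Cyba, Ncf1, Ncf4 and Rac2, which were chosen by name out of the 55487 gene identifiers in the tables. RNA-seq libraries came from mouse bone marrow cells in 4 groups of 3. Cells labelled MA9 carried a retroviral vector for MLL::AF9, a fusion of the chromatin regulator MLL with AF9 that drives acute myeloid leukaemia, and cells labelled WT did not. Each kind of cell had received either a mock retrovirus (titled control in the labels) or a retrovirus expressing sPrdm16, the labels' name for a form of the zinc-finger regulator Prdm16. The series title places the work in cytarabine resistance and metabolic reprogramming of acute myeloid leukaemia. All 12 libraries thus came from cells given a virus, and the MA9 cells had been given the fusion vector as well. The labelled culture medium contained mouse IL-3 at 5 ng/ml and named MA9 cells alone. What drives the vectors, how many clones or animals were used and how WT cells were kept is not stated in the labels.

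The oxidase is the enzyme with which neutrophils, monocytes, macrophages and eosinophils make superoxide from oxygen and NADPH. Cybb encodes gp91phox, also called NOX2, the catalytic subunit that carries electrons across the membrane, and Cyba encodes p22phox, the membrane partner that stabilises it. In resting cells the products of Ncf1 (p47phox) and Ncf4 (p40phox) wait in the cytosol, and on stimulation they move to the membrane together with the small GTPase Rac2 to switch the enzyme on. Inherited loss of Cybb, Cyba, Ncf1 or Ncf4 function in humans impairs this burst and causes or resembles chronic granulomatous disease.

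In the coordinates of the files, which were those of mm10, Cybb lay on the minus strand at chrX:9435252-9487771 and Cyba on the minus strand at chr8:122424776-122432930. Ncf1 was on the minus strand at chr5:134220053-134229625. Ncf4, on the plus strand at chr15:78244801-78262580, and Rac2, on the minus strand at chr15:78559167-78572783, shared a chromosome and were 296586 bases apart. The 250 bases before the annotated start are shown for Cybb, Cyba and Ncf1, the 3 of 5 members found in the promoter table used (RefSeq, GRCm38.p6). Each is written 5′ to 3′ on the strand of the gene (minus for all 3), and capitals mark every match to a searched motif.
Cybb, chrX:9469325-9469574: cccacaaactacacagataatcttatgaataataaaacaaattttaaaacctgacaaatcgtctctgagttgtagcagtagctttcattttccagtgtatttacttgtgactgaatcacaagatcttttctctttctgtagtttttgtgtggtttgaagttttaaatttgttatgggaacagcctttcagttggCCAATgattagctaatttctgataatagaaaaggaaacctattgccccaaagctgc
Cyba, chr8:122432941-122433190: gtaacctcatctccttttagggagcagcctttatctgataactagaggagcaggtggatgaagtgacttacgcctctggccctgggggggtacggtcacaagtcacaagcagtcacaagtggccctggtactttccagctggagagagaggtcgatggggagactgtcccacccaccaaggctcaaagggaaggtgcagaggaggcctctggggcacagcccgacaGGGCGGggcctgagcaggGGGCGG
Ncf1, chr5:134229626-134229875: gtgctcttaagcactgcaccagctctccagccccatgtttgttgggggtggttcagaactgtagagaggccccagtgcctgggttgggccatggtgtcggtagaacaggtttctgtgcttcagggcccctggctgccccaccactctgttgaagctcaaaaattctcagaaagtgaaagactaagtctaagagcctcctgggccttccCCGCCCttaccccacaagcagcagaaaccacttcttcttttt
The motifs were CCAAT, the GC box GGGCGG and GAGGAA, a core bound by the myeloid factor PU.1, each searched on both strands from 250 bases before to 50 bases after the start. The Cybb window held CCAAT from 56 to 52 bases before the start and the reverse complement of GAGGAA from 10 to 15 bases after it, outside the stretch printed. The Cyba window held a pair of GC boxes, 24 to 19 and 6 to 1 bases before the start, and the Ncf1 window held 1 on the opposite strand, 42 to 37 bases before. None of the searched motifs overlapped another in these windows. Of 32851 mouse windows of the same length, 37.4% held CCAAT, 35.7% the GC box and 28.3% GAGGAA, so such matches are common. The Cybb start used by RefSeq lay inside the gene span of the files, and a match describes letters only.

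Totals ranged from 17217123 to 37390897 counts per library. Nuclear protein-coding genes held 3844571 to 7406093 counts in the mock libraries of MA9 and 16905140 to 28169222 in its sPrdm16 libraries, against 16046130 to 17789866 in the 6 WT libraries. Structural RNAs, a class that includes ribosomal, small nuclear and small nucleolar RNA, made up 64.6% ± 8.31 (SD, n = 3) of MA9 mock counts and 18.7% ± 0.120 of MA9 sPrdm16 counts. The WT shares were only 2.25% ± 0.308 with mock and 1.72% ± 0.313 with sPrdm16. Levels are therefore given as CPM, the count of a gene relative to the scaled library total, after TMM scaling, which sets the bulk of genes equal between libraries. The CPM of single libraries were scaled within each genotype and are compared only within it. A change is thus a change relative to most genes, and its part due to the unequal structural RNA was not tested. Without that scaling the median gene in MA9 was higher by 1.43 on the log2 scale with sPrdm16, and the share of rises among called genes went from 49.3% to 95.0%. In WT the median shift was 0.18 and that share went from 51.3% to 71.0%, and for the difference between the genotypes the figures were 1.21 and 57.1% to 96.0%. Prdm16 itself had 0 counts in each MA9 mock library, while the sPrdm16 libraries of MA9 had 5733, 8889 and 5353. WT mock had 22, 18 and 0 counts, and WT sPrdm16 had 950, 708 and 793, which matches the labels. Markers of B cells summed to at most 7.19 CPM and those of T and NK cells to at most 2.34 CPM in any library, and Ms4a1 and Pax5 were at 0 in all MA9 libraries, so lymphoid marrow cells were barely represented. Each genotype had its own table, so a difference between MA9 and WT libraries cannot be told apart from one between tables.

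Cybb, the catalytic subunit, was lower with sPrdm16 in both genotypes, relative to most genes. In MA9 mock libraries 1 to 3 it stood at 91.5, 124 and 146 CPM, and in the MA9 sPrdm16 libraries at 49.2, 46.6 and 46.9 CPM. In WT mock the values were 326, 356 and 374 CPM, and in WT sPrdm16 they were 140.1, 142 and 115 CPM. The groups did not overlap in either genotype, and the MA9 mock libraries were the most scattered. Cybb fell by 1.34 on the log2 scale in MA9 (SE 0.14, adjusted p = 0.000137, 2.53-fold), whereas with total counts and no scaling its value there was 0.14 (adjusted p = 0.68). In WT it fell by 1.41 (SE 0.10, adjusted p = 9.9e-08, 2.66-fold), and with total counts by 1.24. These are quasi-likelihood p-values of edgeR after Benjamini-Hochberg adjustment across every tested gene, and a gene was called at 0.05. Relative to the median gene Cybb stood at -1.36 in MA9, and at -1.30 with total counts.

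Cyba, the membrane partner of Cybb, did not follow it in MA9. Its levels in MA9 mock were 67.1, 80.2 and 93.4 CPM and in MA9 sPrdm16 102, 98.0 and 94.4 CPM. The sPrdm16 libraries all lay above the mock libraries, though the nearest pair were close, and the log2 difference of 0.30 (SE 0.11) missed the threshold (adjusted p = 0.0587). In WT the order was the other way, with 1783, 2029 and 1884 CPM in mock and 1263, 1409.6 and 1505 CPM in sPrdm16. Cyba fell there by 0.45 (SE 0.09, adjusted p = 0.00117), with no overlap. The MA9 value was past the threshold in 5 alternatives, among them the fit without MA9 mock replicate 3, the library with the fewest protein-coding counts (0.41, adjusted p = 0.00274).

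**Figure D1:**
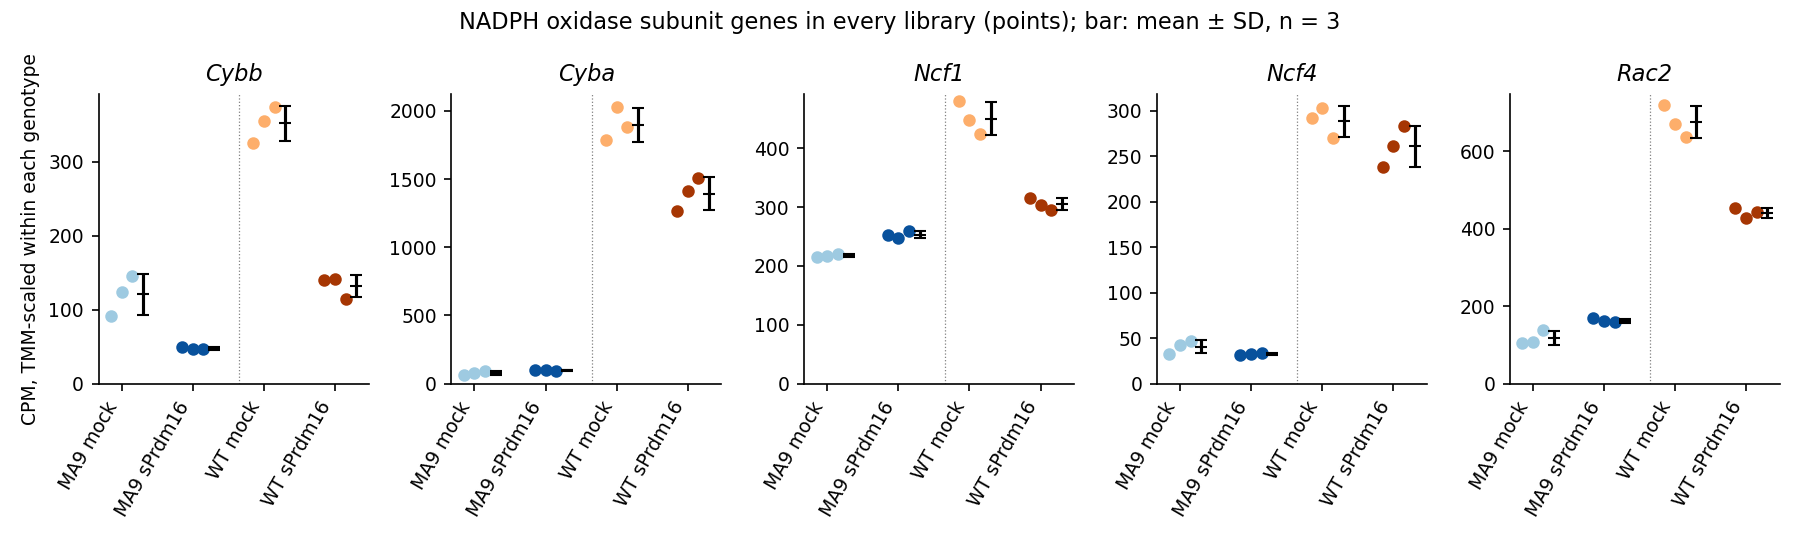
Level of each member in every library, in CPM on a linear axis from 0, TMM-scaled separately within MA9 and within WT, with 1 point per library and the mean ± SD of each group (n = 3). Cybb is lower in the sPrdm16 groups of both genotypes relative to most genes (in MA9 not with total counts), while Ncf1 and Rac2 are higher with sPrdm16 in MA9 and lower in WT.

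Ncf1 organises the cytosolic subunits and docks them on p22phox. In MA9 mock it was tightly grouped at 215, 217 and 219.9 CPM, and in MA9 sPrdm16 it reached 252, 248 and 259 CPM. It rose in MA9 by 0.22 (SE 0.05, adjusted p = 0.0088), a 1.17-fold change. WT mock held 479.7, 448 and 423 CPM and WT sPrdm16 315, 303 and 295 CPM. Ncf1 fell in WT by 0.56 (SE 0.08, adjusted p = 0.000106). Neither genotype showed overlap between its groups, and the small MA9 rise missed the threshold without MA9 sPrdm16 replicate 3 (adjusted p = 0.0563).

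Ncf4, whose product binds a phosphoinositide of the phagosome membrane, was the member with the least change in WT. MA9 mock gave 32.5, 42.4 and 46.6 CPM and MA9 sPrdm16 gave 31.1, 32.9 and 33.6 CPM, so that the lowest mock library fell among the sPrdm16 libraries. The difference of -0.31 (SE 0.12) was not called (adjusted p = 0.087), and with total counts its sign turned to 1.15. Without MA9 mock replicate 1 it was -0.46 and past the threshold (adjusted p = 0.00285). In WT the levels were 291, 303 and 269.6 CPM in mock and 238, 261 and 283 CPM in sPrdm16, which overlap, with a difference of -0.14 (SE 0.09, adjusted p = 0.239) that became 0.03 with total counts.

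Rac2, the haematopoietic GTPase of the complex, differed most between the genotypes. MA9 mock stood at 106, 108 and 139.6 CPM and MA9 sPrdm16 at 168, 162 and 158 CPM. Rac2 rose in MA9 by 0.47 (SE 0.10, adjusted p = 0.00592, 1.38-fold). In WT the levels were 718, 670.1 and 635 CPM in mock and 453, 428 and 443 CPM in sPrdm16. It fell there by 0.61 (SE 0.08, adjusted p = 4.4e-05, 1.53-fold). The groups were separate in both genotypes, and 1 library, MA9 mock replicate 3, lay apart from the other 2 of its group. Rac1, the widely expressed relative of Rac2, was not called in MA9 (0.24, adjusted p = 0.0819, but 0.35 and called without MA9 mock replicate 3). It fell in WT by 0.34 (adjusted p = 0.0131), a call lost with total counts (-0.16, adjusted p = 0.217) and without WT sPrdm16 replicate 3 (-0.26, adjusted p = 0.0709).

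Of the 5 members, 2 rose (Ncf1 and Rac2) and 1 fell (Cybb) in MA9, and 0 rose and 4 fell in WT. Of the 14394 genes tested in MA9, 17.1% rose and 17.5% fell, 34.6% in all. Of the 14063 tested in WT, 17.5% rose and 16.6% fell, 34.1% in all. Mock and sPrdm16 libraries did not overlap for 4 members in MA9, 1 lower and 3 higher with sPrdm16, beside 23.4% of all genes lower and 26.7% higher. In WT 4 members were lower without overlap, beside 22.8% of all genes. With total counts the MA9 calls were 4 rises and 0 falls, while WT kept 4 falls. The median of the members was 0.22 in MA9, where that of all genes was 0.03, and -0.56 in WT, where that of all genes was 0.01. All 5 passed the low-count filter in every fit, on 383 to 34699 counts per library.

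The difference between the genotypes was tested directly, as the MA9 effect minus the WT effect over all 12 libraries. It was 1.16 for Rac2 (SE 0.13, adjusted p = 3.6e-06), 0.87 for Ncf1 (SE 0.10, adjusted p = 8.1e-06) and 0.83 for Cyba (SE 0.15, adjusted p = 0.000358). Those 3 were called, all with the MA9 effect above the WT effect, as were 16.0% of 16194 genes. For Cybb the difference was 0.16 (SE 0.18, adjusted p = 0.562), which does not show that the falls were equal, and with total counts it was 1.38 and called (adjusted p = 0.000262). Ncf4 had a difference of -0.08 (SE 0.15, adjusted p = 0.789), and its sign turned with total counts (1.12). The members had a median difference of 0.83 beside 0.08 for all genes. Prdm16 counts also differed between the sPrdm16 groups (5353 to 8889 in MA9 and 708 to 950 in WT). The IL-3 medium was labelled for MA9 alone. A difference by genotype cannot be told apart from one by Prdm16 level or culture.

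**Figure D2:**
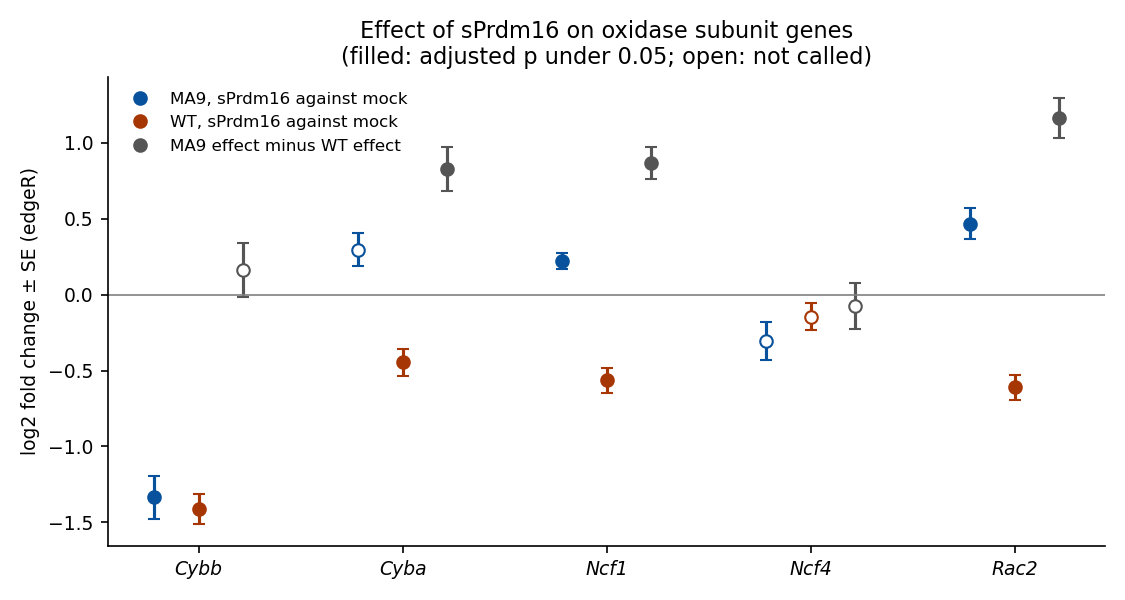
Log2 fold change with sPrdm16 in MA9 and WT for each member, and the MA9 effect minus the WT effect, with SE bars, after TMM scaling (filled points were called, open points were not). Cybb is below 0 in both genotypes (in MA9 not with total counts, where it was 0.14), while Ncf1 and Rac2 are above 0 in MA9 and below 0 in WT.

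Ratios between members inside 1 library need no scaling between libraries. Per kilobase of transcript, the log2 ratio of Cybb to Cyba was -2.23, -2.04 and -2.03 in MA9 mock and -3.72, -3.75 and -3.68 in MA9 sPrdm16. The ratio was thus 3.07-fold lower with sPrdm16, and the groups were far apart next to their spread. WT mock gave -5.13, -5.19 and -5.01 and WT sPrdm16 -5.85, -5.99 and -6.39, a 1.96-fold lower ratio. Against the mean of the other 4 members, Cybb went from -1.11 ± 0.17 to -2.61 ± 0.04 (SD, n = 3) in MA9 and from -2.30 ± 0.15 to -3.27 ± 0.22 in WT. Each of these comparisons had an exact 2-sided permutation p of 0.1, the smallest that 3 libraries against 3 allow, and 0.133 after adjustment over the 8 ratio comparisons. The ratio of Ncf4 to Ncf1 moved in opposite directions, from -1.46 ± 0.25 to -1.98 ± 0.05 in MA9 and from 0.33 ± 0.08 to 0.75 ± 0.17 in WT, again at an exact permutation p of 0.1. Rac2 to Ncf1 overlapped between mock and sPrdm16 in both genotypes (exact permutation p of 0.2 and 0.4). Whether the changes in ratio differed between MA9 and WT was not tested. Of the summed signal per kilobase of the 5 genes, Cybb held 9.15% in MA9 mock and 3.28% in MA9 sPrdm16, and 2.32% and 1.20% in the WT groups.

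**Figure D3:**
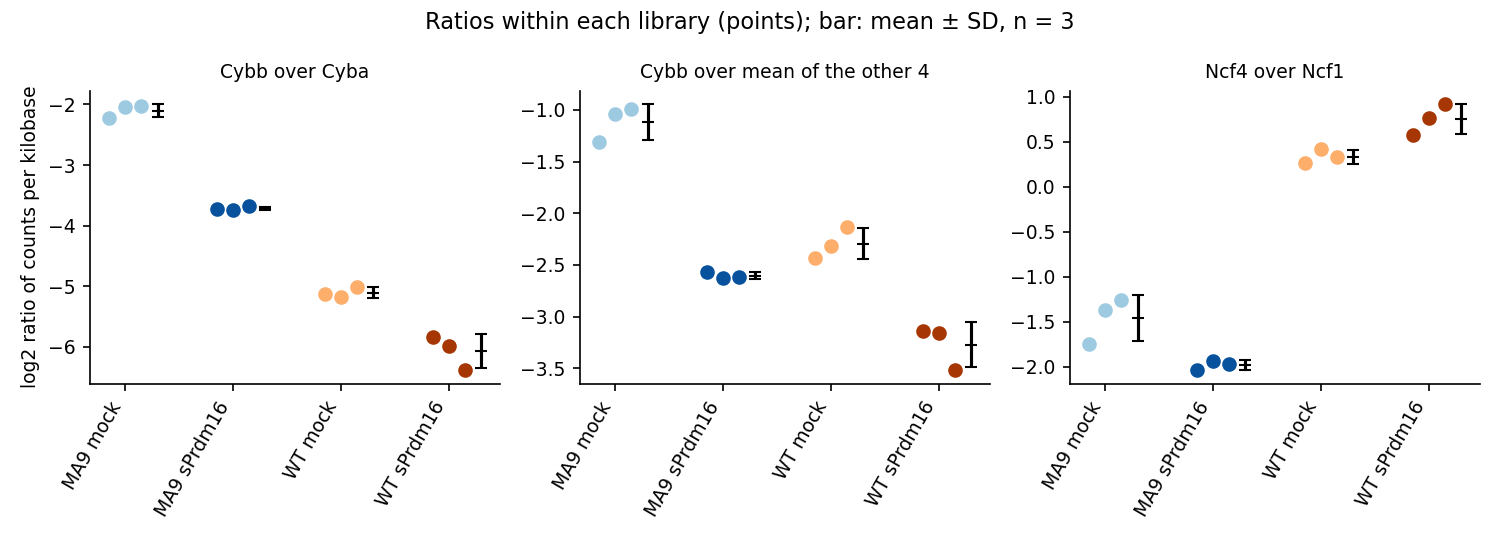
Log2 ratio of counts per kilobase between members within each library, 1 point per library, by group, with bars for the mean ± SD (n = 3). Cybb over Cyba runs from -2.23 to -2.03 in MA9 mock and from -3.75 to -3.68 in MA9 sPrdm16, and is lower again in WT.

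Levels between genes are compared per kilobase of the transcript length given in the files, on a scale shared by the 12 libraries. Cyba was the most abundant member in all 4 groups, at 129 ± 19.5 CPM per kilobase (SD, n = 3) in MA9 mock and 169 ± 7.44 in MA9 sPrdm16. Its WT levels were 2052 ± 141 with mock and 1515 ± 133 with sPrdm16. It ranked 28th of 16194 genes in WT mock and 404th in MA9 mock. Cybb was the lowest member, at 30.4 ± 6.58, 12.8 ± 0.377, 59.5 ± 4.24 and 22.5 ± 2.60 in the same order of groups, and in MA9 mock it did not differ from Ncf4 (33.1 ± 5.58) beyond their spread. The middle of the order differed. In MA9 mock Ncf1 (90.4 ± 0.535) stood above Rac2 (46.6 ± 6.61) and Ncf4, as it did in MA9 sPrdm16 (112 ± 1.19, 68.6 ± 2.60 and 28.5 ± 1.14). In WT mock the order was Rac2 (178 ± 10.4), Ncf4 (158 ± 9.44) and Ncf1 (126 ± 7.51), and in WT sPrdm16 Ncf4 (144 ± 12.3), Rac2 (118 ± 3.33) and Ncf1 (85.6 ± 2.75). With the union of exons in place of the longest transcript, Ncf4 and Cybb swapped in MA9 mock and Rac2 and Ncf4 swapped in WT sPrdm16.

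On that shared scale all 5 members were lower in every MA9 mock library than in every WT mock library, as were 37.9% of the genes, while 34.4% were higher in MA9 mock. With total counts 56.8% of the genes, and again all 5 members, were lower. The gap was widest for Cyba and narrowest for Ncf1. These levels carry no test, because genotype and table coincide. Cyba made up 39.1% of the 5 genes' signal per kilobase in MA9 mock and 79.7% in WT mock, a share that needs no scaling between libraries.

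**Figure D4:**
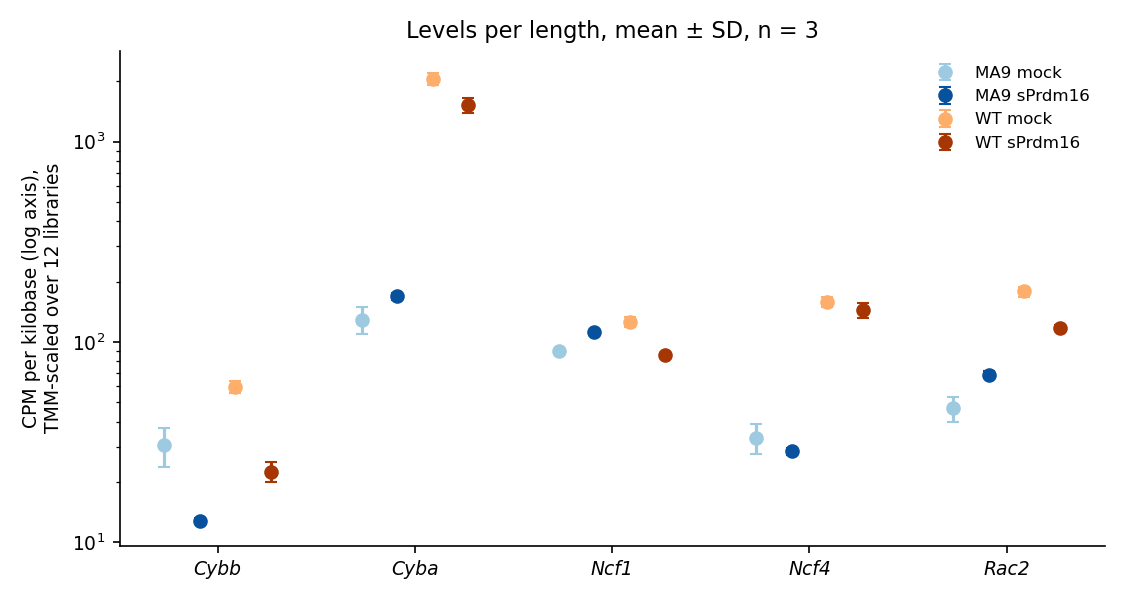
Level per kilobase of transcript for each member in the 4 groups, in CPM per kilobase on a log axis and TMM-scaled over the 12 libraries, where points are means and bars the SD (n = 3). Cyba is the highest member in every group, and Ncf1 stands next to it in both MA9 groups but below Rac2 and Ncf4 in both WT groups.

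Other genes of the pathway were read from 6 lists, by the same test. Among 8 partners and regulators, 2 rose and 2 fell in MA9 (median 0.19), and 2 rose and 5 fell in WT (median -0.30). With total counts 8 rose and 0 fell in MA9 and 2 rose and 3 fell in WT, and without MA9 mock replicate 3 the MA9 counts were 5 and 2. Hvcn1, the proton channel that balances the charge moved by the oxidase, rose in MA9 by 0.80 and in WT by 0.33, a WT call that was lost without any 1 of 4 libraries (mock replicates 1 and 3 and sPrdm16 replicates 1 and 2, adjusted p = 0.0669 to 0.109). Cybc1, a chaperone that gp91phox and p22phox need, fell in MA9 by 0.48 after TMM scaling, but was 0.94 with total counts. Rap1a, a GTPase that copurifies with the membrane subunits, fell in both (-0.50 in MA9, where total counts gave 0.94, and -0.94 in WT). S100a9, 1 of a calcium-binding pair that delivers arachidonate to the oxidase, rose in MA9 by 1.89 and fell in WT by 2.67. Its partner S100a8 was not called in MA9 (0.22, but called without MA9 mock replicate 3 at 0.30) and fell in WT by 2.36. Nrros, a regulator of gp91phox turnover, rose in WT by 0.37.

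Other NOX and DUOX genes, which encode related oxidases of other tissues and their partners, were near 0. Of 9 listed, 1 (Noxo1) passed the filter and was not called, and Nox3, Noxa1, Duox1 and Duoxa1 were at 0 in all 12 libraries. The list summed to at most 1.80 CPM in any library.

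Among 17 genes that signal to the oxidase, 4 rose and 4 fell in MA9 (median 0.08), and 3 rose and 6 fell in WT (median -0.01). With total counts 14 rose and 0 fell in MA9, and 6 rose and 4 fell in WT. The MA9 counts also rested on single libraries, with 2 rises and 2 falls without mock replicate 2, 7 and 3 without mock replicate 3, and 1 rise with 3, 2 and 2 falls without sPrdm16 replicates 1, 2 and 3. The protein kinase C gene Prkcb, whose product phosphorylates p47phox, rose in MA9 by 0.97 and fell in WT by 0.65. Pik3cd, a leukocyte phosphoinositide 3-kinase, fell in MA9 by 0.89 (0.54 with total counts) and rose in WT by 0.71. The Rac exchange factor Vav3 fell in MA9 by 0.76 (0.63 with total counts) and in WT by 0.49 (-0.31 and not called with total counts, adjusted p = 0.0639). Pak1, a kinase activated by Rac, rose in MA9 by 0.48 and in WT by 0.71. The MA9 call of Pak1 was lost without mock replicate 2 or any 1 of the sPrdm16 replicates (adjusted p = 0.0507 to 0.0786). Its relative Pak2 rose in MA9 by 0.31 (adjusted p = 0.0238), a call lost without any 1 of the sPrdm16 replicates (adjusted p = 0.0712 to 0.0818), and fell in WT by 0.52.

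Of the receptors that trigger the burst, 0 rose and 4 of 9 tested fell in MA9 (median -0.24), and 0 rose and 7 of 11 fell in WT (median -0.43). With total counts 6 rose and 1 fell in MA9, and 0 rose and 6 fell in WT. C5ar1, the receptor for complement C5a, fell in both (-1.98 in MA9 and -2.69 in WT), but was -0.58 and not called in MA9 with total counts (adjusted p = 0.163). The integrin chain Itgb2 fell in MA9 by 0.78 (0.65 with total counts) and in WT by 0.50, and its partner Itgam fell in WT by 0.53. The fungal glucan receptor Clec7a fell in MA9 by 1.79, but was -0.34 and not called with total counts (adjusted p = 0.385). Fcgr1, a high-affinity receptor for immunoglobulin G, fell in MA9 by 4.93, on 131 counts over the mock libraries and 14 over the sPrdm16 libraries. The formyl peptide receptors Fpr1 and Fpr2 fell in WT (-3.14 and -2.91).

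Of 12 myeloid transcription factors, 4 rose and 3 fell in MA9 (median 0.08), and of 10 tested in WT, 1 rose and 2 fell (median -0.11). With total counts 10 rose and 0 fell in MA9, and 3 rose and 2 fell in WT. Spi1, which encodes PU.1, rose in MA9 by 0.45 (adjusted p = 0.0032) and was not called in WT. Cebpb and Gfi1 rose in MA9 by 0.50 and 0.75. Irf8, a factor of monocyte development, fell in MA9 by 2.15 (-0.67 and not called with total counts, adjusted p = 0.0562), and Hoxa10 fell by 1.01 (0.47 with total counts). Cebpe, which drives granule formation in neutrophils, fell in WT by 1.38, and Irf1 rose there by 0.80. Runx1 fell in WT by 0.68 and in MA9 by 0.35 (1.05 with total counts).

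Genes listed for the supply of cytosolic NADPH, the fuel of the oxidase, differed between genotypes. Tkt and Taldo1 among them do not make NADPH themselves. In MA9, 5 of 6 rose and 0 fell (median 0.41), where 17.1% of all genes rose. Among them were Me1 at 1.11, Tkt at 0.63, Taldo1 at 0.41 and G6pdx at 0.41. Idh1 rose there by 0.23 (adjusted p = 0.0416), and Pgd was not called (0.03, adjusted p = 0.65). In WT 0 rose and 2 fell (median -0.14), namely Pgd by 0.49 and Taldo1 by 0.42. The MA9 count fell to 3 rises without mock replicate 2, sPrdm16 replicate 2 or sPrdm16 replicate 3, and to 2 without sPrdm16 replicate 1. G6pdx lost its call in each of these 4 fits (adjusted p = 0.0534 to 0.0922) and Taldo1 without sPrdm16 replicate 1 (adjusted p = 0.0525). The difference between genotypes was called for 5 of 6, all with the MA9 effect higher, as it was for 16.0% of 16194 genes. With total counts the median difference of all genes was 1.21, and 95.0% of the genes called in MA9 were rises.

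**Figure D5:**
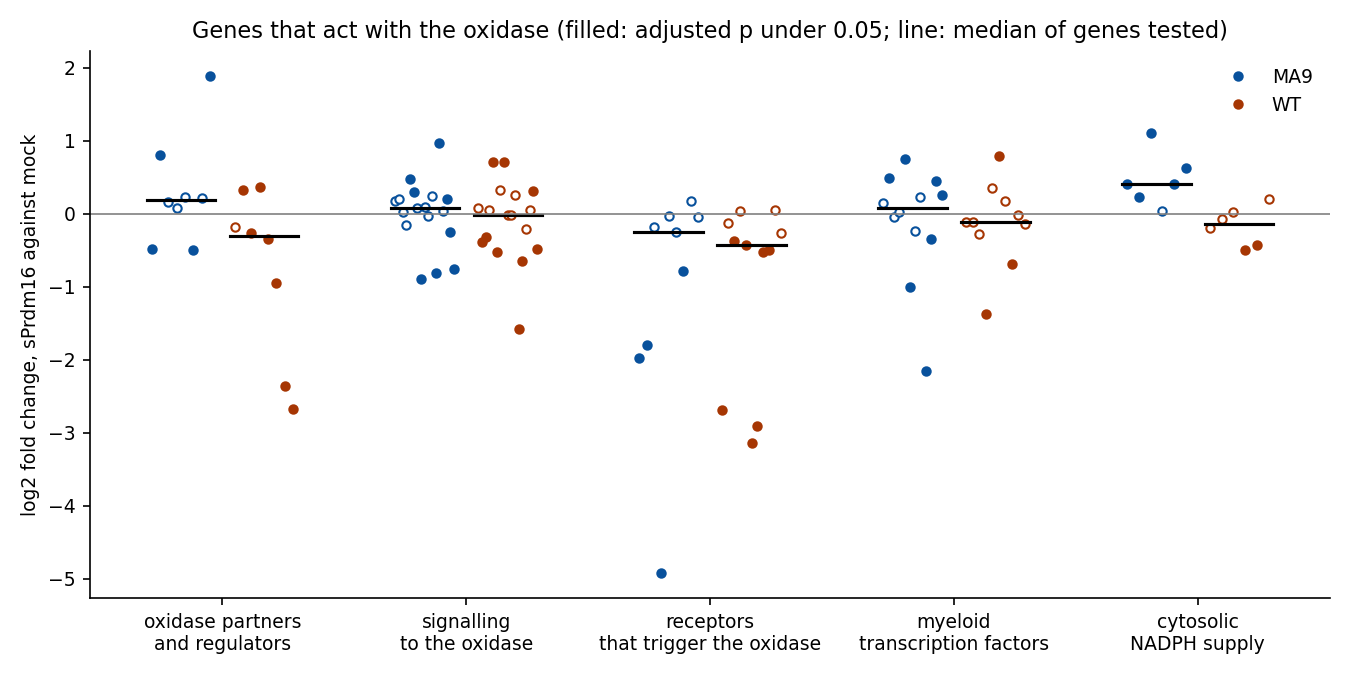
Log2 fold change with sPrdm16, after TMM scaling, of the tested genes of 5 pathway lists in MA9 and WT, 1 point per gene, filled where called, with a line at the median of the genes tested. The genes listed for NADPH supply lie mostly above 0 in MA9 (median 0.41) and mostly below 0 in WT (median -0.14). With total counts the median gene of MA9 was higher by 1.43.

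Markers of myeloid cell types, among them the users of the oxidase named above, moved as well. In bulk RNA, fewer cells of a type and less RNA per cell cannot be told apart. In WT 11 of 12 neutrophil markers fell and 0 rose, and their sum went from 26296 to 32340 CPM in mock to 5075 to 5566 CPM in sPrdm16. In MA9 2 of 11 tested rose and 4 fell, with sums of 793 to 1001 and 1088 to 1129 CPM, and Retnlg was at 0 in the mock libraries. S100a8, S100a9 and Ngp held most of these MA9 sums, in which the falls of Camp (-5.81) and Mmp8 (-4.42) hardly show. Monocyte and macrophage markers had 2 rises and 6 falls among 10 tested in MA9 (707 to 1070 and 869 to 880 CPM), and 1 rise and 7 falls among 11 in WT (27554 to 31137 and 24563 to 25468 CPM). The 2 that rose in MA9, F13a1 and Ly6c2, held most of its sum (means 427 and 300 CPM in sPrdm16). Falls such as those of Csf1r (-3.11) and Klf4 (-4.31) hardly show in it. In WT Lyz2 alone held most of the sums (means 26481 CPM in mock and 22584 in sPrdm16). Eosinophil markers fell in both, 6 of 7 in MA9 (85.0 to 130 CPM in mock and 10.0 to 11.7 in sPrdm16) and 5 of 6 in WT (287 to 330 and 16.4 to 22.9 CPM), with Ccr3 at 0 in 3 of the 4 groups. Of the mast cell and basophil markers 10 of 10 fell in WT (5591 to 6205 and 569.5 to 621 CPM), and 1 of 3 tested fell in MA9 (107 to 113 and 43.4 to 48.2 CPM), where Cpa3, Prss34, Fcer1a, Tpsb2, Cma1 and Mcpt4 were at 0. The 1 that fell in MA9, Hdc (-1.34), held most of the MA9 sums (means 107 CPM in mock and 42.2 in sPrdm16). Mcpt8 (0.20) and Ms4a2 (0.17) were not called there. Dendritic cell markers rose in WT for 6 of 7 tested (748 to 870 and 2786 to 3123 CPM), and in MA9 1 of 5 rose and 2 fell, at 16.3 CPM or less. Most of the WT sums lay in class II antigen presentation genes, such as Cd74 (means 524 and 1709 CPM) and H2-Ab1 (120 and 621). In WT Itgax was not called (-0.11), and Clec9a (means 0.93 and 0.11 CPM) and Xcr1 (0.57 and 0.20) were not tested. With total counts the MA9 markers gave 6 rises and 2 falls for neutrophils, 4 and 5 for monocytes and macrophages, 0 and 5 for eosinophils, 2 and 0 for mast cells and basophils, and 3 and 2 for dendritic cells. The part of these shifts in the changes of the 5 oxidase genes was not tested.

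For each member the 3 protein-coding genes with the most similar profile over the 12 libraries were found, as a description, by the root mean square difference between centred log2 CPM values among 9613 genes. Cybb was nearest to Itpr2 (0.26), Fyb (0.27) and Pag1 (0.29), which is a looser match than for the other members. Nearest to Cyba were Atp6v0c (0.12), Cox6a1 (0.12) and Prdx1 (0.14), and to Ncf1 they were Frg1 (0.08), Ube2d2a (0.09) and Pgd (0.10). Ncf4 was nearest to Coro1a (0.11), Myl12a (0.11) and Tmem120a (0.12), and Rac2 to Eif1b (0.10), Taldo1 (0.12) and Adipor1 (0.12). Among the members themselves the closest pair was Ncf4 and Rac2 (0.58) and the farthest Cyba and Ncf1 (1.78), and no member was among the 3 nearest genes of another. These distances include the difference between the genotypes' tables.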

How the data were processed

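The authors deposited 1 table per genotype of expected counts per gene and library, which are estimated counts that need not be whole (5.19% to 10.2% of values per library were not) and were rounded here. Per the submitters' processing notes, DRAGEN (no version) and build mm10 were used. The cDNA method, any removal of ribosomal RNA and the use of strand were not given in the sources used here. Cyba and Ncf1 overlap Galnt2l and Gtf2ird2 on the opposite strand (at most 307 and 393 counts in a library). The counts of Cybb, Cyba, Ncf4 and Rac2 were whole in all libraries, and those of Ncf1, which may be split with other genes, were not in 5 of 12.

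Tests used edgeR 4.0.16 under R 4.3.3, with TMM scaling, the default filter (minimum count 10), robust quasi-likelihood fits and Benjamini-Hochberg adjustment at 0.05. Each genotype was fitted on its 6 libraries, and the difference of effects on 12. The SE of a fold change was derived from the F statistic, and log2 CPM used a prior count of 2. The steps were tested on simulated data in which only chosen genes changed, so the scaling under unequal structural RNA was not tested. Replicates of a group differed by more than sampling noise (chi-square per gene 3.50 to 124, on totals with no scaling factor). The highest values, 101 and 124, were those of the pairs with MA9 mock replicate 3. Structural RNA made up 74.2% of that library, against 59.1% and 60.6% in MA9 mock replicates 1 and 2. The part of these values due to that difference was not tested. The labels do not say that replicates are separate cultures or animals, so a p-value here reflects only the spread of these samples, possibly technical. Counts carry no molecular identifiers, so depth limits cover counting error only.

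Members and the 16 lists (154 genes; 6 of the pathway, 10 of markers) were chosen with earlier results of these data known. Named were the 5 members, Prdm16, up to 4 called genes of smallest p per pathway list and test, Rac1 and Cybc1 for their role, the genes between Ncf4 and Rac2, and the 3 nearest profiles per member. Named genes are also given in the other genotype where called there, and S100a8, Pgd, Arhgdib and Fcgr3 where not called. These choices were made after the values were seen. Idh1 and the markers that held most of a sum or moved apart from it were also named after their values were seen. A few list members are not named here. Erythroid markers had 3 rises and 2 falls among 8 tested in WT (304 to 385 CPM in mock and 511 to 583 in sPrdm16). In MA9 1 was tested and not called. Stromal and endothelial markers had 2 rises and 1 fall among 4 in each genotype. Megakaryocyte markers had 1 rise and 1 fall among 4 in MA9, and 0 and 2 among 6 in WT. Of the B cell markers 1 was tested, which rose in WT, and no T and NK cell marker was called. Of all genes 34.6% were called in MA9 and 34.1% in WT. Alternatives were RLE scaling, total counts, no filter, 5 CPM in 3 libraries, DESeq2 1.42.0, limma-voom (limma 3.58.1), a replicate block, protein-coding genes only, 12 libraries in 1 fit, and each library left out.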

Additional observations from a re-analysis of the deposited data

Results flagged for a closer look

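For the results named here the effect of sPrdm16 differed between MA9 and WT by the interaction test of edgeR, and each value is the MA9 log2 fold change minus that in WT. Of the members, Cyba (0.83), Ncf1 (0.87) and Rac2 (1.16) had the higher effect in MA9. Rac1 (0.66), S100a8 (2.66) and S100a9 (4.65) did too. In signalling the values were 1.70 for Prkcb, 0.91 for Pak2, 0.67 for Arhgdib and -1.51 for Pik3cd, which was -0.34 and not called with total counts (adjusted p = 0.337). Of the receptors Fcgr3 had 0.49, Clec7a -1.57, Fcgr1 -4.90 and Fpr2 -4.11. In WT alone Arhgdib (-0.39) and Fcgr3 (-0.43) were called lower, and in MA9 they stood at 0.20 and -0.03 and were not called. Fcgr3 lost its call with RLE scaling and without MA9 mock replicate 1 or 2, MA9 sPrdm16 replicate 1, WT mock replicate 1 or 2, or WT sPrdm16 replicate 1 (adjusted p = 0.0535 to 0.0688), and Clec7a with total counts (-0.39, adjusted p = 0.264). The Fpr2 value rests on 24 mock and 0 sPrdm16 counts in MA9, depends on the prior count and is no bound. The transcription factors gave 0.54 for Spi1, 0.69 for Cebpb, 1.48 for Cebpe and -2.25 for Irf8. The list for NADPH supply gave 0.61 for Pgd, 0.92 for Taldo1, 0.51 for Tkt and 0.69 for G6pdx. Between Ncf4 and Rac2 on chromosome 15, Csf2rb2 (1.22) and Tst (2.39) differed as well.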

How the results depend on the processing

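Over 15 member results and 250 alternatives, 233 kept their direction and their side of the threshold, 9 passed it, 1 lost it and 7 turned sign. For 84 results of other named genes and 1379 alternatives the numbers were 1298 kept, 36 passed, 35 lost and 10 turned. Total counts with no scaling factor changed most. With them 12096 genes were called in MA9 in place of 4981, and 8518 in place of 4532 for the difference between genotypes, where 5 members in place of 3 were called. Signs turned in MA9 for Cybb (0.14), Ncf4 (1.15), Rap1a (0.94), Cybc1 (0.94), Vav3 (0.63), Pik3cd (0.54), Itgb2 (0.65), Hoxa10 (0.47), Runx1 (1.05), Csf2rb2 (1.12) and Csf2rb (1.25), and in WT for Ncf4 (0.030). That of Mpst in WT turned without WT mock replicate 3 and ranged from -0.047 to 0.18 with each library left out. The difference of Ncf4 turned to 1.12 with total counts, 0.014 with no filter, 0.028 without MA9 mock replicate 3 and 0.00032 without WT sPrdm16 replicate 3, over a range of -0.20 to 0.028 with each library left out. The scaling itself sets the shift of all genes, and the cause of the other changes was not tested. The Cyba call in MA9 was gained with total counts, no filter (0.39), limma-voom (0.33), 12 libraries (0.39) and without MA9 mock replicate 3 (0.41). Ncf4 in MA9 was called with the 5 CPM filter (-0.36, adjusted p = 0.0497) and with protein-coding genes only (-0.34, adjusted p = 0.0465).

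With each library left out in turn, 3306 (without MA9 sPrdm16 replicate 1) to 6485 (without MA9 mock replicate 3) genes were called in MA9, 3606 to 4526 in WT and 3649 to 4673 for the difference. Members called were 2 to 4 in MA9, 4 to 4 in WT and 3 to 3 for the difference, and 5 to 5 members stayed lower in MA9 mock than WT mock. Cybb ranged from -1.52 to -1.18 in MA9 and from -1.47 to -1.32 in WT. Deviations of libraries with the same replicate number had correlations of -0.0542 to 0.0491, and those with different numbers -0.0486 to 0.0782. These values cannot exclude a pairing of samples, on which the labels are silent. With the number as a replicate block 4191 genes were called in MA9, 4631 in WT and 4136 for the difference, with 3, 4 and 3 members. Leaving out MA9 mock replicate 1 moved Cybb, Cyba, Ncf1 and Ncf4 in MA9 more than leaving out replicate 3, which moved Rac2 more, and total counts moved all 5 by more than either.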

Other observations

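Ncf4 and Rac2 enclose a stretch of chromosome 15 with 17 genes, 6 of them named and tested. Csf2rb encodes the common beta chain of the receptors for GM-CSF, IL-3 and IL-5, and Csf2rb2 the beta chain of the mouse IL-3 receptor. In WT Csf2rb2 fell by 1.46 on the log2 scale (adjusted p = 1.4e-08) and Csf2rb by 0.37 (adjusted p = 0.00298), while in MA9 they stood at -0.32 and -0.18 and were not called. With total counts the MA9 values were 1.12 and 1.25, and Csf2rb was no longer called in WT (-0.20, adjusted p = 0.0667). Without MA9 mock replicate 1 both were called lower in MA9 (-0.46 and -0.26). These are near-identical copies, so reads may be split between them. Tst, a mitochondrial sulfurtransferase, rose in MA9 by 0.97 and fell in WT by 1.34, the same directions as Rac2, and its MA9 call was lost without any 1 of the sPrdm16 replicates (adjusted p = 0.0525 to 0.0839). Its neighbour Mpst and Kctd17 were not called in the main fits. In MA9 Mpst was called with total counts (2.34), no filter (0.91), limma-voom (1.01) and a replicate block (0.87). Mpst was also called there with 12 libraries (0.89) and without mock replicate 3 (1.27). Kctd17 was called in MA9 with total counts (2.12), no filter (0.83), DESeq2 (0.72), 12 libraries (0.83) and without mock replicate 2 (0.90). C1qtnf6 was tested and not called in WT and for the difference between genotypes.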
